A study of Mus musculus with 5 samples.

Results

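The Fc receptors for immunoglobulin G are the proteins through which cells bind the constant part of IgG antibodies. They were taken here as 6 genes (Fcgr1, Fcgr2b, Fcgr3, Fcgr4, Fcer1g and Fcgrt) out of 18193 genes with a singly annotated probe set, and every probe set annotated to exactly 1 of them was included, 11 in all. Fcgr2b had 5 probe sets, Fcgr1 had 2, and the other genes had 1 each. RNA came from whole hearts of female mice that were bled and perfused with saline, and each heart was measured on 1 Affymetrix Mouse Genome 430 2.0 array. The nephritic group was 3 NZB_W mice aged 12 to 15 weeks with moderate kidney injury on the Austin score. NZB_W is the F1 hybrid of the NZB and NZW strains, which develops lupus-like disease without any treatment. The control group was 2 healthy NZW mice of matched age, and neither group was treated. The NZB parent is not among the samples, so strain and nephritis cannot be told apart in any difference below.

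Activating Fc gamma receptors (Fcgr1, Fcgr3 and Fcgr4) bind immune complexes on macrophages and other leukocytes. They signal through the Fc receptor gamma chain encoded by Fcer1g, whose ITAM motif recruits the kinase Syk. Fcgr2b is the inhibitory member: its ITIM motif recruits the phosphatases SHIP1 (Inpp5d) and SHP-1 (Ptpn6). Fcgrt encodes FcRn, an MHC class I-like receptor that pairs with beta-2 microglobulin in endothelium and macrophages and protects IgG and albumin from degradation. In lupus nephritis, IgG immune complexes deposited in tissue are the ligands of the activating receptors.

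The activating receptors and their shared chain had higher values in NZB_W hearts, and the inhibitory and neonatal receptors did not separate the groups. Fcgr4 was 2.99-fold higher, Fcgr1 1.899-fold, Fcer1g 1.59-fold and Fcgr3 1.49-fold, whereas Fcgr2b was 1.06-fold and Fcgrt 1.01-fold higher. In 4 of the 6 genes every NZB_W array lay above both NZW arrays, which was so for 7.6% of the 11902 genes tested. None of these differences passed the test: 0 of 6 genes had a limma adjusted p under 0.05, against 0.0084% of all genes (1 gene), and 1 of 6 (Fcgr4) had an unadjusted p under 0.05 with a higher NZB_W mean, against 2.51% of all genes. That count of 1 was 3 without NZB_W array 3 and 0 without NZW array 2. The median log2 difference of the 6 genes was 0.62, beside -0.014 for all genes tested, and it was 0.34 without NZB_W array 3. Precision is limited by having only 3 arrays against 2. The limma p-values weigh each group difference against the spread between arrays of a group, in which animal and array effects are mixed.

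NZB_W array 3 stood apart from the other arrays before any receptor was considered. Its score on the first principal component of the tested genes was 30.4, against -15.4 to -4.03 on the others. The 5' minus 3' log2 difference of the beta-actin control, a sign of RNA integrity, was -1.31 on that array and -1.19 on NZW array 2, and -0.89 to -0.88 on the other 3. NZW array 2 also had the highest signal from the 18S ribosomal RNA control, at 12.7 against 9.97 to 10.5. The receptor genes' differences are therefore also given without one or both of these arrays. Myh6, the cardiac myosin heavy chain, read 14.09 to 14.25 on the 5 arrays.

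Promoter sequence of 3 receptors is shown: the 2 activating receptors with the largest differences and the inhibitory receptor. They were picked with their differences and motifs known, and a link between motif and difference was not tested. The sequences are the 250 bases before the annotated start in RefSeq (GRCm38.p6, strain C57BL/6J), read 5' to 3' along the gene; capitals mark motif matches. Motifs were searched on both strands: the interferon-gamma-activated (GAS) element TTCNNNGAA, the interferon-response core GAAANNGAAA, the PU.1 core GAGGAA and the C/EBP core TTGCNNAA.
Fcgr1 (chr3:96293970-96294219, minus strand): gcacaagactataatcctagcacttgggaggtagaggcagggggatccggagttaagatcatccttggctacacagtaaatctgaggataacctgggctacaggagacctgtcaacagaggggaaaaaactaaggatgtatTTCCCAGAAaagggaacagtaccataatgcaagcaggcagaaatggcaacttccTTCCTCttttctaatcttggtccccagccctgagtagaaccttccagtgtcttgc
Fcgr4 (chr1:171018676-171018925, plus strand): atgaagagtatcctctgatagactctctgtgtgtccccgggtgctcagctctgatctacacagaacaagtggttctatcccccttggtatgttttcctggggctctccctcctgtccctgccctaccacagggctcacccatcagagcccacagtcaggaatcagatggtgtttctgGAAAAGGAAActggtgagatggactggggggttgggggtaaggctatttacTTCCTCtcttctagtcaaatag
Fcgr2b (chr1:170976072-170976321, minus strand): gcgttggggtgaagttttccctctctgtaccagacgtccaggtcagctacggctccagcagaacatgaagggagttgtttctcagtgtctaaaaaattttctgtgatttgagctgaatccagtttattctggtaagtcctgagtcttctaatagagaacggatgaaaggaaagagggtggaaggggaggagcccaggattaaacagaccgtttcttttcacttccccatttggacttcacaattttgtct

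In the Fcgr1 window the capitals are a GAS match, TTCCCAGAA, at 109 to 101 bases before the start, and a PU.1 core, TTCCTC on this strand, at 55 to 50 bases. The Fcgr4 window holds an interferon-response core, GAAAAGGAAA, at 73 to 64 bases and a PU.1 core at 22 to 17 bases. The Fcgr2b window holds none of the 4 motifs, and neither does that of Fcer1g, whose log2 difference was 0.67. Fcgr3 has a PU.1 and a C/EBP core and Fcgrt a C/EBP core. Among all 32851 promoter windows of this length, 7.02% hold a GAS match, 2.98% the interferon-response core, 23.3% the PU.1 core and 9.56% the C/EBP core. A match describes these letters in the reference strain and is not evidence of binding in NZB or NZW hearts.

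Fcgr4, an activating receptor of macrophages and neutrophils that prefers IgG2 antibodies, had the largest difference of the 6 genes. Its single probe set (1425225_at) read 6.30, 5.96 and 7.04 in NZB_W mice 1, 2 and 3, against 4.95 and 4.76 in the NZW mice. The lowest NZB_W value exceeded the higher NZW value by more than the NZW arrays differed from each other, and NZB_W array 3 was the highest of all. The NZB_W mean was 6.43 ± 0.552 (SD, n = 3) and the NZW mean 4.85 ± 0.132 (SD, n = 2). They differ by 1.58 on the log2 scale, with an SE of 0.34, a 95% interval from 0.69 to 2.47 and an adjusted p of 0.735 in limma. Only 0.176% of the genes tested had a larger positive difference. The NZW values lay close to the array medians of 4.62 to 4.68, so the size of this fold depends on values in the dim middle of the arrays. The difference was 1.28 without NZB_W array 3 and 1.18 when NZW array 2 was dropped as well.

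**Figure D1:**
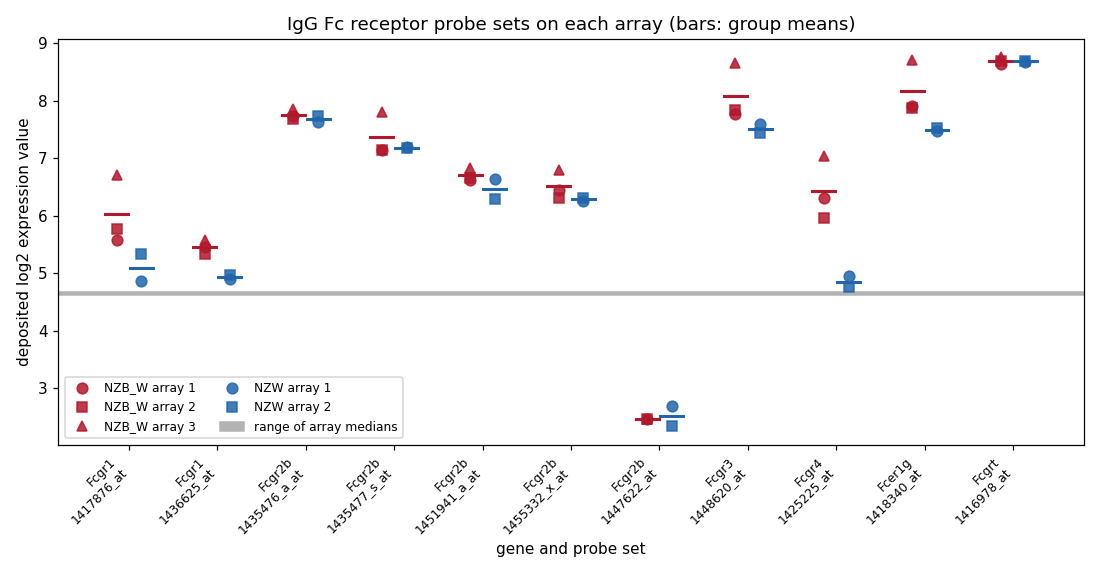
Deposited log2 value of each of the 11 receptor probe sets (horizontal axis) on each of the 5 arrays (points; red NZB_W, blue NZW), with group means as short bars and the range of array medians as a grey band. Fcgr4 has all 3 NZB_W points above both NZW points, while the Fcgr2b and Fcgrt points of the 2 groups overlap; the dim Fcgr2b probe set lies far below the band.

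Fcgr1, the high-affinity IgG receptor CD64, was measured by 2 probe sets that gave the same direction. The brighter one (1417876_at) read 5.58, 5.77 and 6.71 in NZB_W and 4.86 and 5.33 in NZW. The groups did not overlap, but the gap between them was smaller than the difference between the NZW arrays. Its log2 difference was 0.93 (SE 0.39, 95% interval -0.10 to 1.95, limma adjusted p = 0.859), falling to 0.58 without NZB_W array 3. The dimmer probe set (1436625_at) read 5.45, 5.34 and 5.58 in NZB_W and 4.90 and 4.98 in NZW. Here the arrays of a group lay close together and NZB_W array 3 did not stand out. The log2 difference of this probe set was 0.52 (SE 0.093, adjusted p = 0.556 in the limma fit over probe sets), and between 0.46 and 0.58 with any 1 array left out.

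Fcgr3, the low-affinity receptor CD16, read 7.76, 7.83 and 8.65 in NZB_W hearts against 7.59 and 7.43 in NZW hearts. NZB_W array 3 was well above the rest, and NZB_W arrays 1 and 2 were only slightly above the controls. The log2 difference was 0.57 (SE 0.30, 95% interval -0.22 to 1.36, limma adjusted p = 0.859). It was 0.29 without NZB_W array 3 and 0.21 without that array and NZW array 2.

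Fcer1g, the signalling chain that carries the activating receptors to the surface, read 7.91, 7.88 and 8.71 in NZB_W and 7.48 and 7.52 in NZW. The 2 NZW arrays were nearly equal, and all NZB_W arrays lay above them. Its log2 difference of 0.67 (SE 0.29, 95% interval -0.085 to 1.43, limma adjusted p = 0.859) was 0.40 without NZB_W array 3 and 0.42 without NZW array 2 as well. Across the arrays Fcer1g followed Fcgr3 most closely: after each gene was centred on its own mean, the root mean square distance between them was 0.085, the smallest between Fcer1g and any other receptor gene.

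Fcgr2b, the inhibitory receptor, gave overlapping groups on all 5 of its probe sets. The brightest (1435476_a_at) read 7.73, 7.69 and 7.85 in NZB_W and 7.62 and 7.73 in NZW. Its log2 difference was 0.081 (SE 0.081, 95% interval -0.13 to 0.29). The difference was 0.033 without NZB_W array 3, 0.086 without that array and NZW array 2, and 0.027 without NZW array 1. The other 3 tested probe sets differed by 0.18 (1435477_s_at), 0.24 (1451941_a_at) and 0.23 (1455332_x_at), with adjusted p from 0.883 to 0.905 in the limma fit over probe sets. Of these 1435477_s_at had the widest 95% interval, from -0.44 to 0.80. On 1435477_s_at only NZB_W array 3 was high, at 7.80 against 7.15 on arrays 1 and 2 and 7.19 and 7.17 in NZW, and the difference was -0.035 without it. The difference of 1451941_a_at was 0.073 without NZW array 2, and that of 1455332_x_at was 0.091 without NZB_W array 3. The fifth (1447622_at) read 2.34 to 2.68 on all arrays, among the dimmest values, and was not tested. Suffixes a, s and x mark probe sets whose probes can match more than 1 transcript, which can be of the same gene or, for s and x, of another. Fcgr2b and Fcgr3 have closely similar extracellular sequence, and any signal shared between them cannot be separated here.

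Fcgrt, the neonatal receptor, was the most even of the 6 genes. It read 8.64, 8.69 and 8.75 in NZB_W and 8.68 and 8.69 in NZW, values that overlap completely. The log2 difference was 0.0088 (SE 0.065, 95% interval -0.16 to 0.18, limma adjusted p = 0.984), and its sign turned without NZB_W array 3 (-0.021) and with median centring (-0.00505). B2m, the beta-2 microglobulin chain that FcRn shares with MHC class I, read 12.4, 12.1 and 13.03 in NZB_W and 11.9 and 11.9 in NZW. The groups differ by 0.58 on the log2 scale (SE 0.30, adjusted p = 0.859 in limma), or 0.31 without NZB_W array 3.

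**Figure D2:**
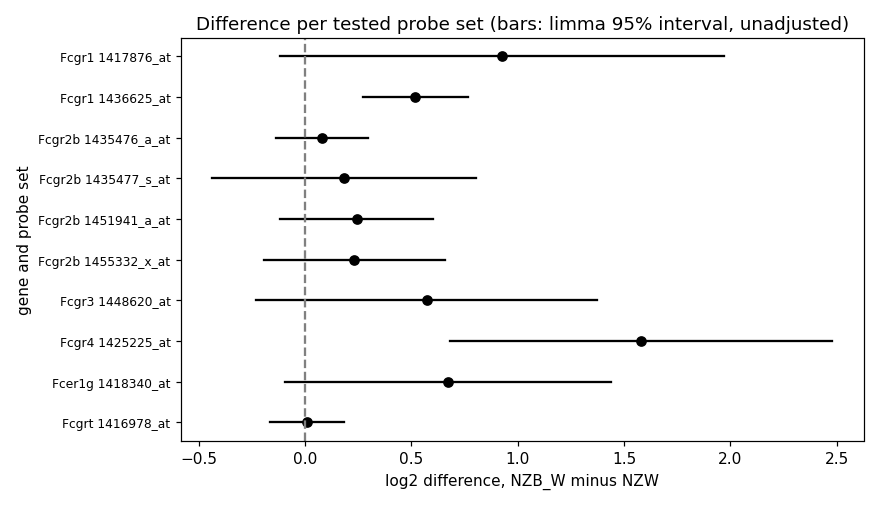
Log2 difference, NZB_W minus NZW, of the 10 receptor probe sets tested (points), with the unadjusted 95% interval of the limma fit over 22819 probe sets (lines); the dashed line is no difference. The intervals of Fcgr4 and of the dimmer Fcgr1 probe set lie above 0, and the other 8 cross it.

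When each of the 10 bright receptor probe sets was tested on its own, 0 had an adjusted p under 0.05, against 0.0219% of 22819 probe sets, and 2 had an unadjusted p under 0.05 with a higher NZB_W mean, against 2.27%. All 10 had a higher NZB_W mean, against 45.6% of all probe sets. In 5 of the 10 every NZB_W array exceeded both NZW arrays, against 6.96% of all probe sets; these were the probe sets of Fcgr1, Fcgr3, Fcgr4 and Fcer1g, several of which measure 1 gene or one receptor complex and are not independent.

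The activating receptors were also set against Fcgr2b within each array, since the balance of activating and inhibitory receptors sets the response of a cell to immune complexes. After centring each gene on its own mean, Fcgr4 minus Fcgr2b was 0.50, 0.19 and 1.11 in NZB_W hearts, against -0.75 and -1.05 in NZW. The groups did not overlap, and because Fcgr2b itself hardly differed, this value mostly restates the Fcgr4 difference. The difference between groups was 1.5 (exact two-sided permutation p = 0.1, adjusted p = 0.2 over 3 pairs). For Fcgr1 minus Fcgr2b the difference was 0.84, and for Fcgr3 minus Fcgr2b it was 0.49, both with an exact p of 0.2 (adjusted p = 0.2). With 10 arrangements of the arrays this test cannot go below 0.1, so it could not have passed. Without NZB_W array 3 and NZW array 2 the differences were 1.10 for Fcgr4, 0.73 for Fcgr1 and 0.13 for Fcgr3.

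**Figure D3:**
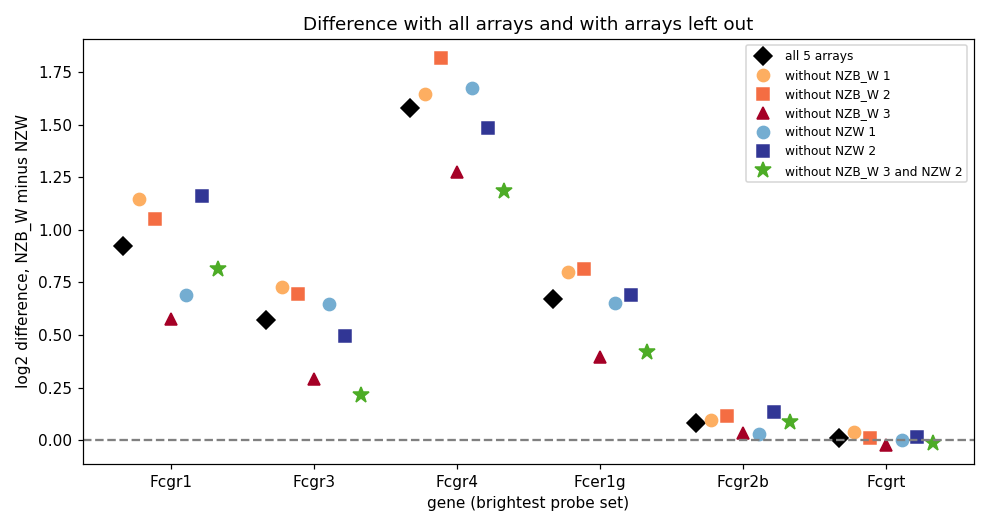
Log2 difference of each receptor gene (brightest probe set) with all 5 arrays, with each left out in turn, and with both NZB_W array 3 and NZW array 2 left out. Fcgr4 stays between 1.18 and 1.82 in these settings, Fcgr3 ranges from 0.21 to 0.73, and Fcgr2b and Fcgrt stay near 0.

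The activating receptors are carried by macrophages and other leukocytes, and macrophage markers were also higher in NZB_W hearts. In whole-heart RNA, more cells of a type and more RNA per cell cannot be told apart. Of 13 macrophage markers, 12 were bright enough to test (Cx3cr1 was not), and all 12 had a higher NZB_W mean, against 45.5% of all genes, with a median log2 difference of 0.61. Their mean log2 level ran from 7.41 to 8.31 on the NZB_W arrays and from 6.91 to 7.16 on the NZW arrays. None was called. Itgam (CD11b) differed by 1.35 (SE 0.20), reading 5.09, 4.76 and 5.39 in NZB_W. It passed the brightness filter only through the NZB_W arrays, since both NZW values (3.69 and 3.77) lay below the array medians. Without Itgam the median of the list was 0.59. Cd14 differed by 0.64 (SE 0.19), or 0.37 without NZW array 2. Adgre1, a surface marker of tissue macrophages, differed by 0.79 (SE 0.35), or 0.46 without NZB_W array 3, Csf1r by 0.55 (SE 0.33) and Cd68 by 0.34 (SE 0.27). Relative to each gene's mean, the median of the list was -0.0085, -0.067 and 0.80 on the NZB_W arrays, against -0.11 and -0.58 in NZW. The list had the same high array as Fcgr1, Fcgr3 and Fcer1g, and its 2 lower NZB_W arrays were close to NZW array 1. Without NZB_W array 3 and NZW array 2 the list median was 0.12. In that setting Fcgr4 differed by 1.18, Fcgr1 by 0.81, Fcer1g by 0.42 and Fcgr3 by 0.21. Single macrophage markers varied there too: Adgre1 differed by 0.52 and Cd14 by 0.44, but Csf1r by -0.021 and Cd68 by -0.10. Some markers had wider gaps on the arrays kept, NZB_W 1, NZB_W 2 and NZW 1. Itgam read 5.09, 4.76 and 3.69 on them and Ms4a7 6.69, 6.48 and 5.78, where Fcgr4 read 6.30, 5.96 and 4.95. The part of macrophage content in the receptor differences was not tested.

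**Figure D4:**
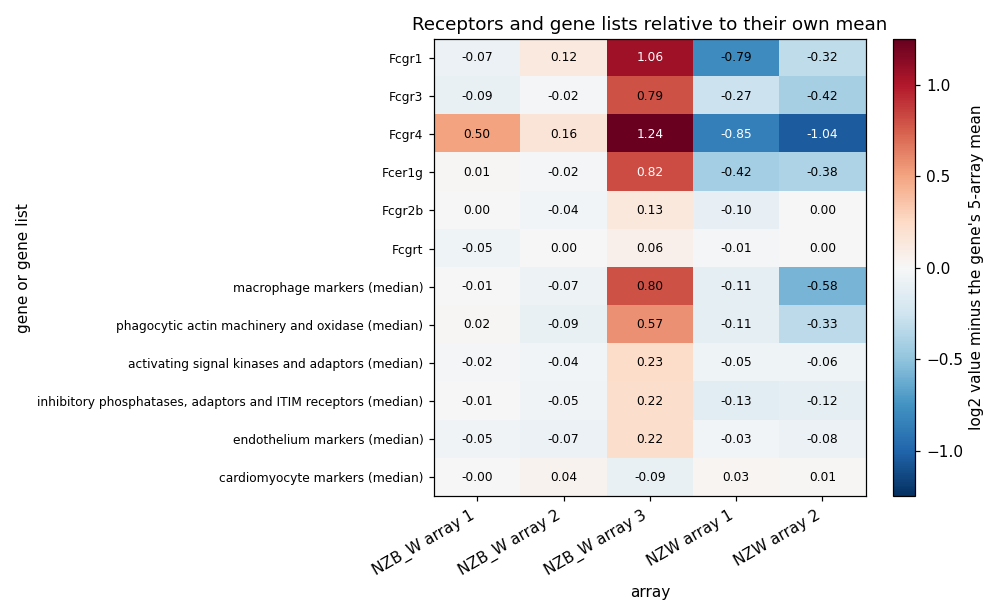
Log2 value of each receptor gene, and the median over members of 6 gene lists, on each array relative to the gene's own mean over the 5 arrays (colour and printed value). NZB_W array 3 is the highest column in every row except the cardiomyocyte list, where it is the lowest. Its values are largest for Fcgr1, Fcgr3, Fcgr4, Fcer1g and the macrophage list. Fcgr4 is also above its mean on NZB_W arrays 1 and 2 (0.50 and 0.16), where the macrophage list median is not. Single markers of that list vary: Cd14 read 8.34 and 8.14 on these 2 arrays (7.80 and 7.26 in NZW). Itgam, with a profile nearer to that of Fcgr4, read 5.09 and 4.76 on them (3.69 and 3.77 in NZW). Cd68 read 6.79 and 6.94 on them (6.97 and 6.53 in NZW).

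Among markers of other cells that carry Fc receptors, only 1 of 6 NK cell markers and 1 of 5 B cell markers were bright enough to test; Ncr1, Cd79a and Ms4a1, which define these cells, lay below the filter. The 3 testable neutrophil markers had a median difference of -0.16: Csf3r differed by 0.12, S100a9 by -0.16 and S100a8 by -0.54. S100a8 and S100a9 were highest on NZB_W array 3 (6.19 and 6.00) and lowest on NZB_W array 2 (3.97 and 3.72). The 4 testable dendritic cell markers had a median of -0.019, with 2 higher and 2 lower. Among them Itgax (CD11c) had every NZB_W array above both NZW arrays, with a difference of 0.63 (SE 0.27), but both its NZW values (4.29 and 4.26) lay below the array medians. All 4 testable mast cell markers had a lower NZB_W mean (median -0.38), and in 2 of them every NZB_W array lay below both NZW arrays, against 9.83% of all genes. The mast cell protease Cpa3 read 5.29, 5.19 and 5.03 in NZB_W hearts against 6.08 and 5.64 in NZW hearts; the NZB_W mean was at -0.69 relative to NZW (SE 0.16, limma adjusted p = 0.741). The 8 endothelial markers, of the cells in which FcRn is abundant, had a median of 0.039. Alas2, a red cell gene, differed by 2.19 (SE 0.71), reading 9.70, 7.90 and 10.1 in NZB_W against 7.14 and 6.95 in NZW.

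The genes of the proteins that relay the receptors' signals were followed as groups. Of 210 genes in 21 lists, 134 were tested; 0 had a limma adjusted p under 0.05 and 15 had an unadjusted p under 0.05, against 5.55% of all genes in either direction. Among 16 tested kinases and adaptors of activating signalling, 14 had a higher NZB_W mean, with a median difference of 0.064, or 0.021 without NZB_W array 3. Of all genes tested, 45.5% had a higher NZB_W mean, which is also the share to set beside the counts of the lists below. Syk, the kinase recruited by the gamma chain, read 7.19, 7.16 and 7.78 in NZB_W and 7.39 and 7.32 in NZW, a difference of 0.022 (SE 0.22) whose sign turned without NZB_W array 3 (-0.18). Malt1, which links ITAM receptors to NF-kappaB, differed by 0.48 (SE 0.15), and Plcg2, a phospholipase downstream of Syk, by 0.34 (SE 0.17).

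On the inhibitory side, 11 of 14 tested genes had a higher NZB_W mean and the median difference was 0.17, or 0.00076 without NZB_W array 3. Of these genes Cd300a passed the brightness filter only through NZB_W arrays, and the median without it was 0.14. Ptpn6 (SHP-1) differed by 0.35 (SE 0.14) and Inpp5d (SHIP1) by 0.30 (SE 0.27), with Inpp5d high only on NZB_W array 3 (7.24, against 6.40 to 6.56 on the other 4 arrays). Clec4a2, an ITIM-bearing lectin of myeloid cells, differed by 1.16 (SE 0.51) but by 0.57 as the mean of its probe sets and 0.70 without NZB_W array 3. Among other ITAM adaptors and receptors all 5 tested had a higher mean (median 0.57, or 0.049 without NZB_W array 3 and NZW array 2). Hcst, 1 of the 5, passed the filter only through NZB_W arrays, so its direction was favoured by the filter. Without Hcst the median was 0.60. Tyrobp (DAP12), the sister adaptor of the gamma chain, read 7.90, 7.84 and 8.71 in NZB_W and 7.74 and 7.41 in NZW, a difference of 0.57 (SE 0.31) that was 0.13 without NZB_W array 3 and NZW array 2.

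Effector genes of phagocytosis had a median difference of 0.37 over 15 tested genes, of which 12 had a higher mean; in 7 every NZB_W array exceeded both NZW arrays, against 7.6% of all genes, and in 1 every NZB_W array lay below them. The oxidase subunit Cybb read 7.93, 7.67 and 9.24 against 7.07 and 6.80, a difference of 1.34 (SE 0.51, limma adjusted p = 0.859) that was 0.86 without NZB_W array 3. Lcp1, an actin-bundling protein of leukocytes, differed by 1.14 (SE 0.46) and the cortactin-like Hcls1 by 0.58 (SE 0.17). Wipf1, a partner of WASP, went the other way at -0.38 (SE 0.13). Without NZB_W array 3 and NZW array 2 the median of this list was 0.040.

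Complement genes that act with Fc receptors on immune complexes had a median difference of 0.57 over 6 tested, with 5 higher, and a median of 0.16 without NZB_W array 3 and NZW array 2. C1qb and C1qc, chains of the IgG-binding C1q made by macrophages, differed by 1.01 (SE 0.31) and 0.96 (SE 0.41; C1qc 0.28 without both arrays), and the anaphylatoxin receptor C3ar1 by 0.62 (SE 0.23). Among 16 tested regulators of Fc receptor genes the median was 0.077, with 12 higher, and its sign turned without NZB_W array 3 (-0.0295). Csf2rb among them passed the brightness filter only through NZB_W arrays, and the median without it was 0.063. Csf2ra, a GM-CSF receptor chain, differed by 0.59 (SE 0.21), or 0.31 as the mean of its probe sets. Of 10 other Fc receptors and Fc-binding proteins on the arrays, 8 were too dim to test, among them the IgE receptor chains Fcer1a and Ms4a2. The 2 tested were Fcrls, an Fc receptor-like protein, at 0.22 (SE 0.069), and Trim21, a cytosolic IgG receptor, at 0.20 (SE 0.10). Of the antibody chains, Igha differed by 1.13 (SE 0.16), while Ighm differed by 0.20 (SE 0.46) with overlapping groups. Among the IgG heavy chains Ighg3 was too dim to test and the others were not analysed here.

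Of the 6 genes, 4 lie on chromosome 1, where Fcgr2b, Fcgr4 and Fcgr3 are consecutive protein-coding genes in the RefSeq order and where Fcer1g lies too; Fcgr1 is on chromosome 3 and Fcgrt on chromosome 7. Adjacent genes thus differed by 0.081, 1.58 and 0.57. The 16 other nearest protein-coding neighbours of the receptor genes, 2 on each side, included 8 tested genes. Their differences ran from -0.48 to 0.29, with 0 called (lowest limma adjusted p = 0.859), against 0.0084% of all genes. In Hjv (-0.37), Tomm40l (-0.25) and Nosip (-0.48) every NZB_W array lay below both NZW arrays, against 9.83% of all genes. The unadjusted limma p of these genes was 0.0403, 0.0307 and 0.0279, where 5.55% of all genes had one under 0.05.

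The genes whose profile over the 5 arrays was closest to each receptor were found by the root mean square distance between mean-centred log2 values. Closest to Fcgr4 were Cd52, a leukocyte surface protein, at 0.097, Ly86 (MD-1) at 0.17 and the MHC class II gene H2-Ab1 at 0.18. Relative to its mean Cd52 was at 0.55, 0.024 and 1.33 in NZB_W and at -0.95 and -0.96 in NZW. Fcgr3 lay closest to Ccnb2 (0.037), Dock10 (0.038) and Ms4a6c (0.049), and Fcer1g to Sh3bgrl3 (0.042), Prkcb (0.044) and the integrin Itgax (0.050). Nearest to Fcgr1 were Mybpc2 (0.067), the formyl peptide receptor Fpr2 (0.090) and Acta1 (0.11), of which Mybpc2 and Acta1 are muscle genes. Distances over 5 arrays are a description, and all of these profiles peak on NZB_W array 3.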

How the data were processed

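The deposited table holds 1 value per probe set and array on a log2 scale, from 1.91 to 14.3. RMA, GCRMA and Partek are named, without versions, in the submitters' processing notes; which made these log2 values, and the build, are not given in the sources used here. RMA and GCRMA each normalize arrays together, and GCRMA removes more background from dim probe sets, so folds of dim genes depend on that choice. No scanner files were used, so there are no detection calls.

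Groups and replicate numbers come from the titles. Of 45101 probe sets, 64 control probe sets were left out, and 34958 carry 1 gene symbol in the platform annotation (932 several, 9211 none). A gene was represented by its brightest probe set and kept when above the array median on at least 2 arrays (11902 genes; 22819 probe sets when tested singly). Tests were limma 3.58.1 (lmFit, eBayes, two-sided, R 4.3.3) with Benjamini-Hochberg adjustment over all features and a threshold of 0.05; SE is limma's moderated error, and folds are log2 differences converted to ratios. The code was tested on simulated data. Promoter sequences matched all 6 genes. Alternatives covered normalization, filters, probe set choice, variance model, array weights, a replicate block and left-out arrays.

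The receptor genes and the gene lists were chosen with earlier results of these data known. Named genes were the receptors, the 4 of each list with the smallest p, fixed partners and markers, the nearest profiles (for receptors with an SD of at least 0.3 over the arrays) and nearest neighbours; the text prints a subset chosen after their values were seen, and marker genes too dim to test and Myh6 are named to show absence or tissue.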

Additional observations from a re-analysis of the deposited data

How the results depend on the processing

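The receptor differences kept their direction and stayed short of the threshold in 85 of 89 recomputed values, and 0 of the 6 genes was called in any setting. The number of receptor genes with an unadjusted p under 0.05, 1 with all arrays, was 3 with quantile normalization and 3 with the replicate block. The 4 exceptions were sign changes of Fcgrt, at -0.00505 with median centring, -0.021 with the replicate block and -0.015 without both NZB_W array 3 and NZW array 2 (a pair chosen after seeing the data); with 1 array left out it ran from -0.021 to 0.037. Fcgr4 lay between 1.18 and 1.82 in all settings, with adjusted p from 0.331 to 1. The Fcgr2b probe set 1435477_s_at was -0.035 with the replicate block, -0.0433 without both arrays, and -0.035 to 0.29 with 1 array left out. Syk was -0.14 with array weights, -0.18 with the replicate block, -0.22 without both arrays and -0.18 to 0.13 with 1 left out. Ighm was -0.15 with array weights, -0.41 without both arrays and -0.33 to 0.74 with 1 left out, and the S100a9 log2 difference ran from -0.74 to 0.40 with 1 left out. Without both arrays Cd68 was -0.10 and Csf1r -0.021, and the group difference of Fcgr3 minus Fcgr2b was 0.13 and that of Fcgr4 minus Fcgr2b 1.10.

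The number of genes called, 1 of all tested, was 5 when a gene's probe sets were averaged, 2 when probe sets of the _s_at, _x_at and _a_at types were dropped, 8 with array weights, 0 with the replicate block, 0 without both arrays, and 0 to 1 with 1 array left out. None was a receptor gene or listed gene. Of 310 list medians, 280 moved by less than their spread between arrays. Replicate numbers 1 and 2 are shared by the groups, but deviations of same-numbered arrays correlated at -0.26 and 0.10, so the numbers are not taken to pair the mice; in the block fit NZB_W array 3 has no partner. The causes of these changes were not tested. Fcgr2b has no bright probe set outside the _a_at, _s_at and _x_at types and could not be fitted without them.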
